A study of Mus musculus with 7 samples.

Results

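On the log scale used here, the largest rise after depletion of lnc-SMaRT in C2C12 cells was that of Slc1a3. This is the gene of a sodium-coupled glutamate and aspartate transporter. It was set beside 9 other genes of glutamate, neutral amino acid, cystine and cationic amino acid transport. The list held Slc1a1, Slc1a3, Slc1a4, Slc1a5, Slc3a2, Slc7a1, Slc7a5, Slc7a11, Slc38a2 and Slc38a4, and a gene was taken wherever its symbol stood in the table of expression values. Of the 10 genes, 8 had a row among 11642, and Slc1a1 and Slc38a4 had none and were not analysed here. The members were selected on the measured values of the same contrast, since Slc1a3 led the rises. Their differences are therefore given as a description, with no test. The name of glutamate and neutral amino acid transporters did not cover the whole list, because Slc7a1 carries cationic amino acids and Slc3a2 is the partner of other carriers.

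C2C12 is a line of mouse myoblasts that exit the cell cycle and fuse into myotubes when serum is withdrawn. Lnc-SMaRT is a long non-coding RNA expressed early in this differentiation. Cells received 30 nM siRNA by reverse transfection and were sequenced as total RNA on day 2 of differentiation, 2 libraries from cells given a scramble control (si-SCR) and 2 from cells given siRNA #1, which targets lnc-SMaRT (si-SMaRT). Each pair of libraries came from independent cell populations of this 1 line, and 1 siRNA was used, so effects of its sequence on other transcripts cannot be told apart from those of the depletion. In a separate experiment, RNA bound by biotinylated probes against lnc-SMaRT or against LacZ was sequenced in 1 library each, with 1 input library.

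Amino acids cross the plasma membrane through families of solute carriers that differ in what they carry and in what drives them. Members of the SLC1 family use the sodium gradient, either to take up glutamate and aspartate (Slc1a1 and Slc1a3) or to exchange alanine, serine, cysteine, threonine or glutamine (Slc1a4 and Slc1a5). Slc38a2 takes up small neutral amino acids together with sodium, and its cargo can then be exchanged for leucine and other large neutral amino acids by Slc7a5, which works only as a heterodimer with Slc3a2. The same heavy chain pairs with Slc7a11, which imports cystine for glutathione synthesis in exchange for glutamate. Several of these genes are known targets of ATF4, the transcription factor translated when amino acids run short.

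The depletion was seen in the target itself. Lnc-SMaRT stood at 19.1 and 15.9 RPKM (reads per kilobase of exon, scaled to library size) in si-SCR 1 and 2 and at 2.88 and 3.65 RPKM in si-SMaRT 1 and 2. The effective library sizes, worked out from the steps between RPKM values, ran from 11291255 to 14312935 reads. All 9 myoblast and myotube markers checked had a row, with summed levels of 7484 and 8216 RPKM in si-SCR and of 6164 and 3905 RPKM in si-SMaRT. Acta1, the skeletal actin, made up the largest part of these sums (2778 and 3240 RPKM, then 2553 and 1274 RPKM). Every marker except Myod1 had a log2 difference below 0, as did 47.7% of all tested genes, and no marker was called. The lowest were those of Ckm (-1.25 ± 0.32 SE, adjusted p = 0.106 by limma) and Tnnt1 (-1.21 ± 0.27, adjusted p = 0.0599). The values of Myod1, a myogenic transcription factor, overlapped between the groups (54.8 and 70.1 RPKM, then 95.9 and 57.7 RPKM). None of 5 endothelial and 5 adipocyte markers had a row, and of 5 macrophage markers only Itgam had one, at 0.208 to 0.555 RPKM. In these bulk libraries, fewer cells of a type and less RNA per cell cannot be told apart. The si-SMaRT libraries differed from each other along the GC content of genes (Spearman's rho of -0.84 across 10948 genes between GC content and the difference of si-SMaRT 2 from si-SMaRT 1; genes are not independent replicates), whereas this value was 0.35 for the si-SCR libraries.

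Slc1a3 lies on chromosome 15 of GRCm38 from 8634124 to 8710764, on the minus strand. Its level was 0.741 and 0.547 RPKM in the si-SCR libraries, from 80 and 66 reads. In the si-SMaRT libraries it was 3.62 and 3.68 RPKM, from 349 and 450 reads. Both si-SMaRT libraries thus lay far above both si-SCR libraries, and the ratio of any si-SMaRT to any si-SCR library was between 4.89 and 6.73. The means differed by 5.67-fold (0.644 ± 0.137 RPKM in si-SCR and 3.65 ± 0.0440 RPKM in si-SMaRT, SD, n = 2 each). On the scale of log2(RPKM + 0.1), which understates changes of low genes, the difference was 2.35 ± 0.31 (SE), the largest value among the 11086 genes with a mean of at least 0.5 RPKM. The gene moved from the 7.28 to the 33.0 percentile of all rows.

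**Figure D1:**
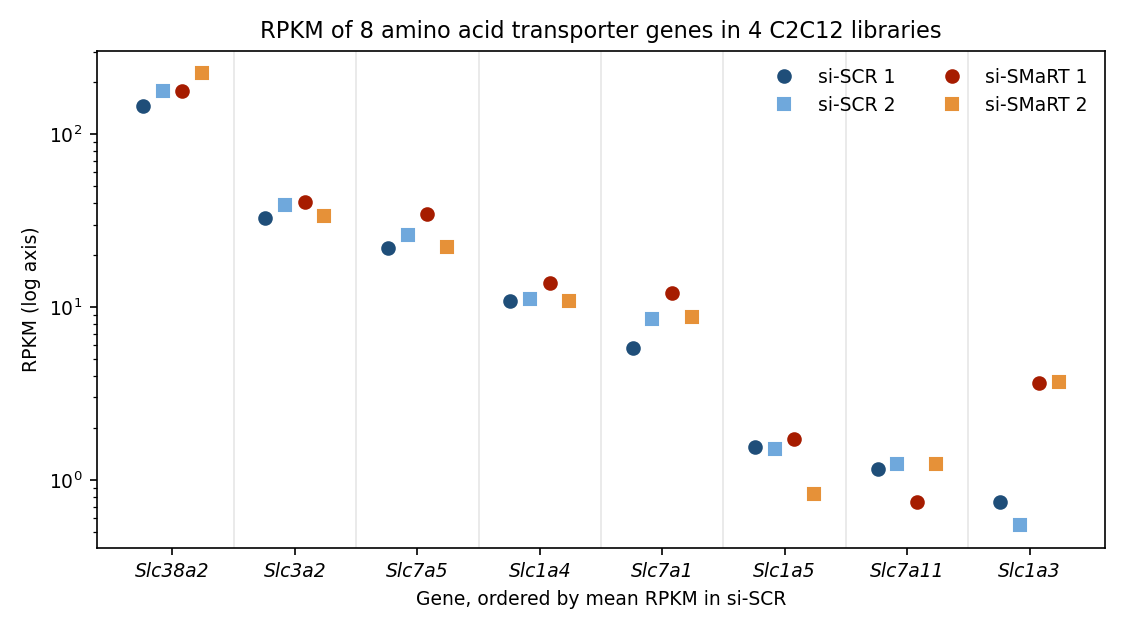
RPKM on a log axis for the 8 transporter genes with a row, ordered by their mean in si-SCR. Each point is 1 library, blue for si-SCR and red or orange for si-SMaRT. Slc1a3 sits at 0.741 and 0.547 RPKM in si-SCR and at 3.62 and 3.68 RPKM in si-SMaRT. The 2 groups overlap for 6 of the 8 genes. Of all tested genes, 20.2% have both si-SMaRT libraries above both si-SCR libraries, and 20.4% have both below.

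Slc1a3 is best known from astrocytes, where it clears glutamate from synapses. Of 10 astrocyte and glia markers checked, 9 had no row. The remaining marker, Gja1, encodes the gap junction protein connexin 43, which myoblasts also make. It stood at 17.3 and 16.5 RPKM in si-SCR and at 26.6 and 30.5 RPKM in si-SMaRT (log2 difference of 0.75 ± 0.26 SE, adjusted p = 0.305 by limma), and its part in the value of Slc1a3 was not tested.

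The 5 tested genes whose 4 library values lay closest to those of Slc1a3 were C1s1, Bmp4, Leprel1, Cxcl5 and Mgp. Closeness was the root mean square difference of log2(RPKM + 0.1) after each gene was centered on its own mean, and it ran from 0.19 for C1s1 to 0.36 for Mgp on the log2 scale over the 4 libraries. C1s1, a complement protease, was at 0.581 and 0.520 RPKM in si-SCR and at 3.0003 and 2.39 RPKM in si-SMaRT. Bmp4, a growth factor of the TGF-beta superfamily, was the lowest of the 5, at 0.213 and 0.127 RPKM and then 0.916 and 0.911 RPKM. Leprel1, a collagen prolyl hydroxylase, was at 0.212 and 0.228 RPKM in si-SCR and at 1.40 and 1.05 RPKM in si-SMaRT. Cxcl5, a chemokine for neutrophils, was at 0.812 and 0.428 RPKM and then 2.19 and 3.08 RPKM. Mgp, an inhibitor of calcification, was far more abundant, at 47.0 and 45.9 RPKM in si-SCR and 147 and 148 RPKM in si-SMaRT. All 5 had both si-SMaRT libraries above both si-SCR libraries, which choosing them for closeness to Slc1a3 made likely. Bmp4 and Leprel1 were under 0.5 RPKM in si-SCR and passed the minimum mean only through their si-SMaRT values.

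The neutral amino acid exchangers of the same family did not share this pattern. Slc1a4 (chromosome 11, 20302180 to 20332713, minus strand) was at 10.8 and 11.1 RPKM in si-SCR and at 13.8 and 10.8 RPKM in si-SMaRT. Its groups overlapped, since si-SMaRT 2 lay between the si-SCR libraries, and its log2 difference was 0.16 ± 0.27 (SE). Slc1a5, the main glutamine exchanger of proliferating cells (chromosome 7, 16781340 to 16798274, plus strand), was at 1.56 and 1.52 RPKM in si-SCR. It was at 1.73 RPKM in si-SMaRT 1 and at 0.824 RPKM in si-SMaRT 2, the highest and the lowest of the 4 values. Its log2 difference of -0.33 ± 0.36 (SE) turned to 0.16 without si-SMaRT 2 and reached -0.83 without si-SMaRT 1. Slc1a4 was 6.92 and 7.30 times as abundant as Slc1a5 per length of transcript in si-SCR, and 7.99 and 13.1 times in si-SMaRT. Slc1a3 was below Slc1a5 in si-SCR, at 0.475 and 0.361 of its level, and above it in si-SMaRT, at 2.10 and 4.47 times its level.

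Slc38a2, the sodium-coupled carrier of alanine, glutamine and other small neutral amino acids (chromosome 15, 96687392 to 96699730, minus strand), was the most abundant of the 8 genes in every library. It was at 146 and 179 RPKM in si-SCR and at 178 and 225 RPKM in si-SMaRT, where the lower si-SMaRT value fell just under the higher si-SCR value. The log2 difference was 0.31 ± 0.27 (SE). Slc38a2 alone made up 66.2% and 67.04% of the summed RPKM of the 8 genes in si-SCR and 62.4% and 73.5% in si-SMaRT, against 0.205% to 1.27% for Slc1a3.

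The heavy chain Slc3a2 (chromosome 19, 8706882 to 8723369, minus strand), which brings its light chains to the membrane, was second in every library. It was at 32.5 and 38.9 RPKM in si-SCR and at 40.7 and 33.6 RPKM in si-SMaRT, and its log2 difference of 0.06 ± 0.27 (SE) was the smallest of the 8. Slc7a5, the light chain for leucine and other large neutral amino acids (chromosome 8, 121881150 to 121907694, minus strand), was at 21.8 and 26.1 RPKM in si-SCR and at 34.4 and 22.3 RPKM in si-SMaRT. Its highest value was that of si-SMaRT 1, while si-SMaRT 2 lay between the si-SCR libraries. The log2 difference was 0.21 ± 0.28 (SE) and turned to -0.10 without si-SMaRT 1.

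Slc7a11, the light chain for cystine and glutamate (chromosome 3, 49892526 to 50443614, minus strand), was among the lowest of the 8, at 1.16 and 1.23 RPKM in si-SCR and at 0.744 and 1.23 RPKM in si-SMaRT. Only si-SMaRT 1 stood below the rest, and the log2 difference of -0.29 ± 0.34 (SE) was 0.04 without that library. Slc7a5 was 18.9 and 21.2 times as abundant as Slc7a11 in si-SCR, and 46.2 and 18.1 times in si-SMaRT. When Slc7a6 and Slc7a7, light chains of the same heterodimers that are no members of the list, were added to Slc7a5 and Slc7a11, the level of Slc3a2 was 0.961 and 1.01 of the summed light chains in si-SCR and 0.863 and 0.961 in si-SMaRT. The RNA of the heavy chain was thus near the sum of the RNAs of the light chains that had a row in each of the 4 libraries. Protein was not measured in these libraries.

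Slc7a1, the carrier of arginine and lysine and the receptor of ecotropic murine retroviruses (chromosome 5, 148327410 to 148399904, minus strand), was at 5.83 and 8.50 RPKM in si-SCR and at 12.1 and 8.78 RPKM in si-SMaRT. Both si-SMaRT libraries lay above both si-SCR libraries, but the nearest values, of si-SCR 2 and si-SMaRT 2, differed by a ratio of 1.03. The log2 difference was 0.54 ± 0.29 (SE), second to that of Slc1a3.

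All 8 genes passed the minimum mean of 0.5 RPKM, and Slc1a3 would have passed it on si-SCR alone. Of the 8, 1 was called at an adjusted p under 0.05 in limma, where 0.505% of all 11086 genes were called (0.18% as higher and 0.325% as lower in si-SMaRT). This was Slc1a3, on the values that led to its choice, so nothing is read from the count. Both si-SMaRT libraries lay above both si-SCR libraries in 2 of the 8 genes, where 20.2% of all tested genes did so, and below in 0 of 8, where 20.4% did. The median log2 difference of the 8 genes was 0.19, and that of all tested genes 0.02.

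In si-SCR the order of levels was Slc38a2, Slc3a2, Slc7a5, Slc1a4, Slc7a1, Slc1a5, Slc7a11 and Slc1a3, and the library values of every gene lay apart from those of its neighbors in the order. In si-SMaRT, Slc1a3 passed Slc1a5 and Slc7a11 and took rank 6 in both libraries. The ranges of Slc3a2 and Slc7a5, of Slc1a4 and Slc7a1, and of Slc1a5 and Slc7a11 overlapped in si-SMaRT. Within each si-SMaRT library, Slc3a2 still lay above Slc7a5, and Slc1a4 above Slc7a1. Only Slc1a5 and Slc7a11 changed places between the libraries.

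The spread between the si-SMaRT libraries ran along GC content in these genes as well. The 5 genes with an exonic GC content over 50% (Slc7a1, Slc3a2, Slc1a4, Slc1a5 and Slc7a5) were all lower in si-SMaRT 2 than in si-SMaRT 1, by -0.28 on the log2 scale for Slc3a2 to -0.98 for Slc1a5. The other 3 were higher in si-SMaRT 2, by 0.02 for Slc1a3, 0.34 for Slc38a2 and 0.66 for Slc7a11. Among all tested genes, 88.9% of those over 50% GC were lower in si-SMaRT 2 and 81.2% of those under 50% were higher. When the trend of each library with GC content was removed, the difference between the si-SMaRT libraries shrank to between -0.06 and 0.05 for Slc38a2, Slc3a2, Slc7a5, Slc1a4 and Slc7a11. It was -0.36 for Slc7a1 and -0.49 for Slc1a5. For Slc1a3 the removal opened a gap that was not there before, with si-SMaRT 2 below si-SMaRT 1 by a log2 difference of -0.34. The log2 difference between si-SMaRT and si-SCR after this removal was 2.25 ± 0.21 (SE) for Slc1a3, 0.55 ± 0.20 for Slc7a1, 0.34 ± 0.13 for Slc7a5 and -0.45 ± 0.21 for Slc7a11. It was 0.24 ± 0.13 for Slc1a4, 0.20 ± 0.18 for Slc38a2, 0.13 ± 0.14 for Slc3a2 and -0.23 ± 0.22 for Slc1a5. Of these genes, only Slc1a3 was called after the removal, where 519 of all 10948 genes were. Slc1a3 was chosen on the same values, so nothing is read from its call.

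**Figure D2:**
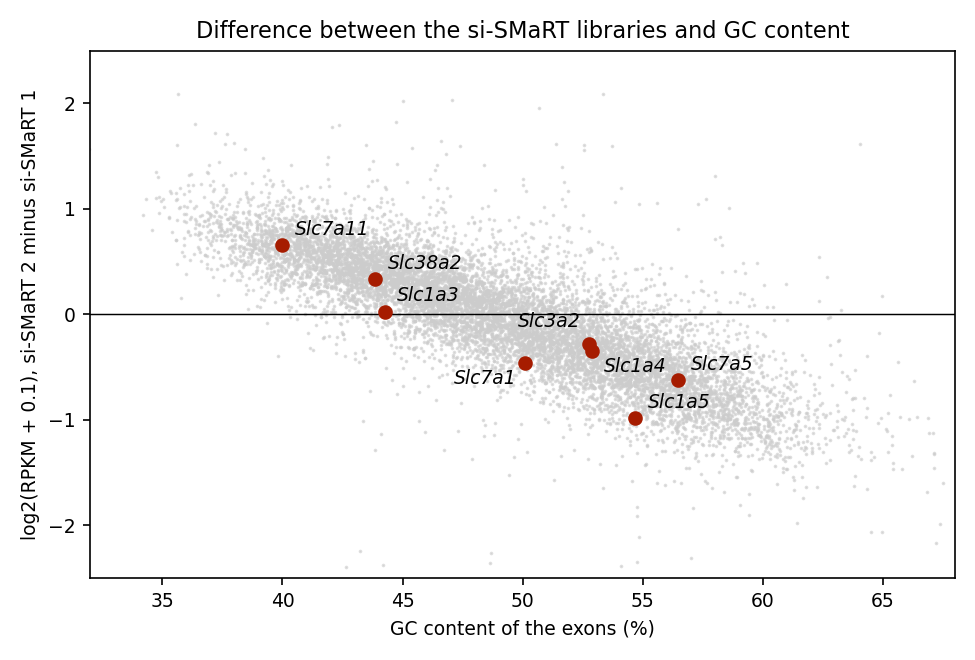
Difference of si-SMaRT 2 from si-SMaRT 1 in log2(RPKM + 0.1) against the GC content of the exons in percent, with the tested genes in gray (46 of 10948 lie outside the axes) and the 8 transporter genes in red. The 5 red points over 50% GC lie below 0 and the 3 under 50% at or above 0.

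ATF4 acts through a composite element that it binds together with a C/EBP factor, and the letters TGATGNAA on either strand were searched in the promoter windows of RefSeq (build GRCm38.p6, 250 bases before to 50 after each start site). Windows were found for 8 of the 10 genes, all but Slc1a5 and Slc7a5. The letters were present in the windows of 2 of these genes, Slc7a11 and Slc1a4, and in those of 1219 of all 27025 genes with a window. Counted by window, they were in 2 of 11 windows of these genes and in 3.97% of all 32851 windows. Among 29 genes of the amino acid response, 25 had a window and 8 of these genes held the letters (8 of 29 windows). The matches of Slc7a11 and Slc1a4 are shown beside that of Trib3, an ATF4 target whose values are given with the response genes. The capitals mark the match, which reads TTGCATCA or TTACATCA where it lies on the opposite strand.
Slc7a11 (chr3:50443651-50443680, minus strand): cTGATGCAAacctggagaatTTGCATCAtc
Slc1a4 (chr11:20332699-20332728, minus strand): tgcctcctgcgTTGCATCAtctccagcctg
Trib3 (chr2:152344028-152344057, minus strand): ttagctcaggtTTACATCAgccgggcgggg
The window of Slc7a11 held 2 matches that face each other, both spelled TGATGCAA on their own strand, and that of Slc1a4 held 1. That spelling alone was present in 0.895% of all windows. The letters were not found in the windows of Slc1a3, Slc1a1, Slc3a2, Slc7a1, Slc38a2 and Slc38a4. Sequence outside the windows, such as the rest of each gene, was not searched. A gene without a match here can therefore still hold the element. The genes with a match had log2 differences of -0.29 ± 0.34 (Slc7a11) and 0.16 ± 0.27 (Slc1a4). Those with a window and a row but no match there had differences from 0.06 (Slc3a2) to 2.35 (Slc1a3).

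The genes of the amino acid response gave the wider frame. Of 29 listed genes, all had a row, and 28 were tested. None was called in limma, and 3 of the 28 had an unadjusted p under 0.05, a share near the 9.09% of all 11086 tested genes that did. The median log2 difference was -0.24, with 19 genes lower and 9 higher in si-SMaRT, where 47.7% of all tested genes were lower. The median was -0.17 after quantile normalization and -0.14 after removal of the GC trend. Atf4 itself, named as the factor of the list, stood at 428 and 440 RPKM in si-SCR and at 364 and 362 RPKM in si-SMaRT (log2 difference of -0.26 ± 0.27 SE).

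Trib3, a pseudokinase that inhibits AKT and ATF4, had the lowest difference of the list. It was at 13.9 and 11.9 RPKM in si-SCR and at 6.13 and 4.504 RPKM in si-SMaRT, with groups well apart. The log2 difference of -1.28 ± 0.28 (SE) just missed the threshold (adjusted p = 0.0528 by limma). It passed with a pseudocount of 1 (adjusted p = 0.0473), after removal of the GC trend (adjusted p = 0.0129) and by voom on the recovered reads (adjusted p = 0.0357). Over all 15 alternatives the adjusted p ran from 2.4e-10 without si-SMaRT 1 to 0.99998 without si-SCR 1, it was under 0.05 in 7, and the difference was below 0 in 15.

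Cth, which makes cysteine from cystathionine, was at 3.91 and 2.56 RPKM in si-SCR and at 1.33 and 1.88 RPKM in si-SMaRT (log2 difference of -0.96 ± 0.32 SE, adjusted p = 0.282). After removal of the GC trend the adjusted p was 0.0252, and over the 15 alternatives it ran from 0.000469 without si-SMaRT 2 to 0.99998 without si-SCR 1, with 5 under 0.05. Eif4ebp1, a repressor of cap-dependent translation, was at 147 and 125 RPKM and then 99.1 and 84.2 RPKM (log2 difference of -0.57 ± 0.27 SE, adjusted p = 0.543). The highest differences of the list were 0.24 for Gpt2, a mitochondrial alanine aminotransferase, 0.24 for Sesn2, a leucine sensor, and 0.12 for Cebpg, a partner of ATF4.

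Of 48 other amino acid carriers of the plasma membrane and the lysosome, 21 had a row and 18 were tested. None was called by limma, with 0 at an unadjusted p under 0.05 and 0 by voom, and the median log2 difference was 0.11. The highest differences were those of Slc36a4 (0.53 ± 0.28 SE), a carrier of proline and tryptophan, Slc6a15 (0.53 ± 0.36), a carrier of branched-chain amino acids and proline, and Slc38a1 (0.32 ± 0.27), a glutamine carrier close to Slc38a2. Slc36a4 stood at 3.31 and 3.61 RPKM in si-SCR and at 4.73 and 5.36 RPKM in si-SMaRT. The lowest were those of Pqlc2 (-0.75 ± 0.36), which exports cationic amino acids from lysosomes, Slc7a7 (-0.46 ± 0.36), a light chain of Slc3a2, and Slc38a9 (-0.32 ± 0.31), a lysosomal arginine sensor. The most abundant of them was the taurine carrier Slc6a6, at 73.7 and 96.4 RPKM in si-SCR and at 110 and 84.0 RPKM in si-SMaRT, the only one of them above Slc3a2 in level.

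Of 9 mitochondrial amino acid carriers, 6 had a row and were tested. None was called by limma, with 0 at an unadjusted p under 0.05 and 0 by voom. All 6 had log2 differences below 0, as did 47.7% of all tested genes, with -0.30 for the aspartate and glutamate carrier Slc25a12, -0.27 for the basic amino acid carrier Slc25a29, -0.10 for the ornithine carrier Slc25a15 and the other 3 down to -0.02, and 3 of the 6 were below 0 after removal of the GC trend.

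**Figure D3:**
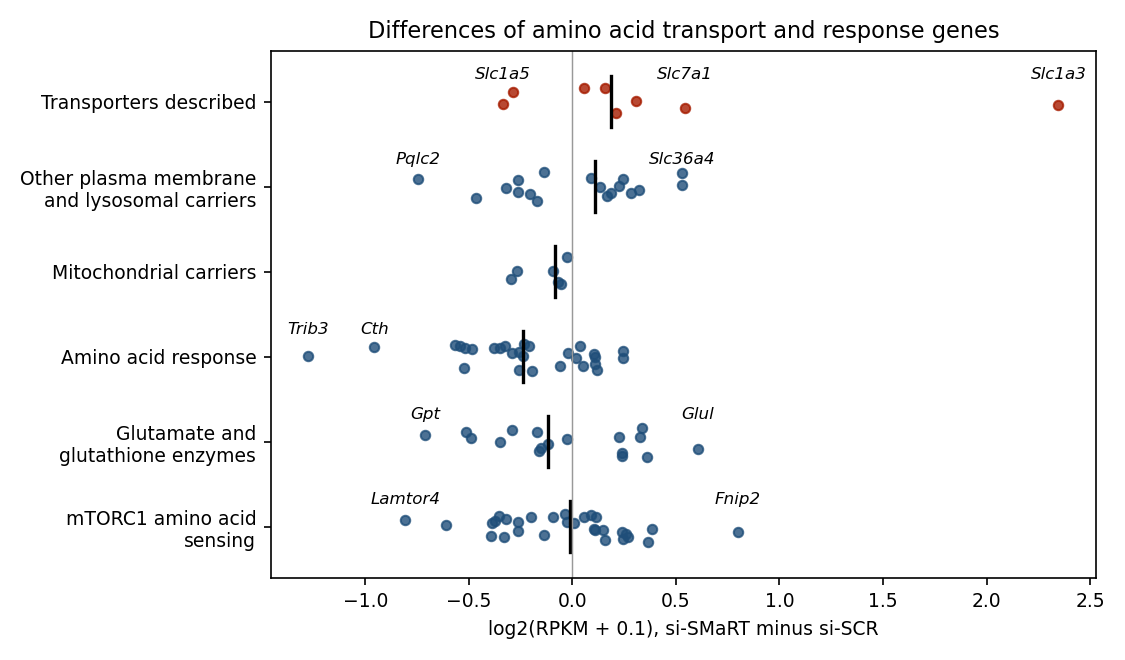
Difference between si-SMaRT and si-SCR in log2(RPKM + 0.1) for the 8 transporter genes (red) and for the tested genes of 5 lists of amino acid transport, response and metabolism (blue), with 1 point per gene, spread vertically for sight only. Black bars mark the list medians, which run from -0.24 for the amino acid response to 0.19 for the 8 transporters. Slc1a3 stands at 2.35, apart from every other point.

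The pull-down asked whether lnc-SMaRT was bound to RNA of these genes. Of 345 peaks with probes against lnc-SMaRT and 336 with probes against LacZ, 0 overlapped any of the 10 genes on the same strand by at least 1 base. Among 11470 genes of the expression table, a lnc-SMaRT peak lay on 0.593% and a LacZ peak on 0.401%, so peaks on any 10 genes were rare. There was 1 library per probe set, and no test was made. A gene of low level gives few reads, and Slc1a3 stood at 0.741 and 0.547 RPKM in si-SCR. The lack of a peak therefore cannot show that RNA of such a gene was not bound. The lysosomal histidine and peptide carrier Slc15a4, named after its values were seen, had 6 lnc-SMaRT peaks and 0 LacZ peaks. For a bound transcript the study required exon peaks of lnc-SMaRT against both input and LacZ, and none of LacZ against input. Whether Slc15a4 met this rule was not tested.

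**Figure D4:**
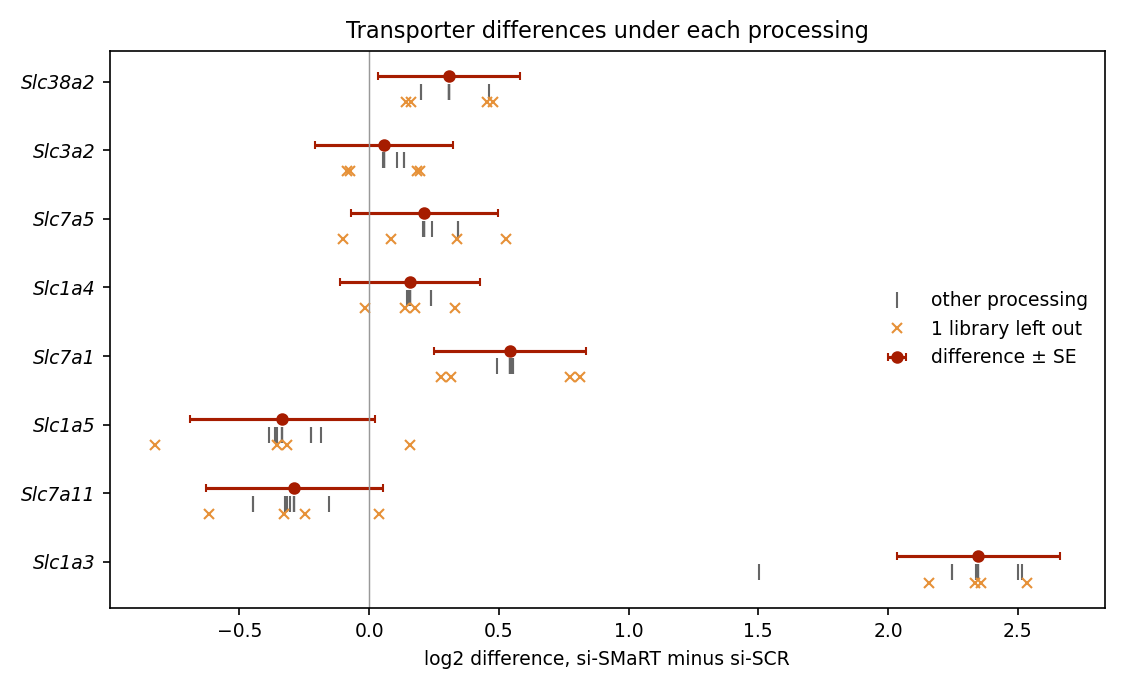
Log2 difference between si-SMaRT and si-SCR for the 8 transporter genes, with the SE as bars, beside the values under other processing (gray ticks) and with 1 library left out (orange crosses). Slc1a3 stays between 1.503 and 2.54, and crosses lie on both sides of 0 for Slc3a2, Slc7a5, Slc1a4, Slc1a5 and Slc7a11.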

How the data were processed

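Per the labels and the methods of the study, libraries were stranded and made from total RNA. The authors trimmed the reads (Trimmomatic), discarded those of rRNA and tRNA (Bowtie2), aligned to GRCm38 (TopHat2), counted on Ensembl genes (HTSeq), dropped genes of low CPM and computed the deposited RPKM values with edgeR. A gene without a row can therefore be low and not absent. The deposited p-value of each peak came from the authors' peak caller.

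The 10 genes and all gene lists were chosen with earlier results of these data known. The fit by limma (version 3.58.1, R 4.3.3, eBayes with a trend) took log2(RPKM + 0.1) of the genes whose mean reached 0.5 RPKM, and p-values were adjusted by Benjamini-Hochberg over all 11086. Read numbers came from the steps between the values of a gene, and for Slc3a2, Slc7a1 and Slc38a2, where the gene model fixed no common factor, they are lower limits. GC content and positions came from GENCODE M21, and GC trends were removed by loess (span of 0.3). No exon of the 8 genes overlapped an exon of another gene there. Named genes were the 10 transporters, any list gene called, the 3 highest and 3 lowest of each list, the markers, and the 5 genes closest to Slc1a3, except that values of withheld items are not reported here. The fit and the read recovery were tested on simulated data. These held no trend with GC content, so they cannot show how the fit behaves under the trend seen here. Other work used Python (3.11.15) with pandas (2.3.3), numpy (2.4.6) and scipy (1.17.1), and figures used matplotlib (3.10.9). The alternatives were pseudocounts of 1 and 0.01, other filters and scalings, the replicate number as a block, GC trends removed, voom on the recovered reads, and each library left out.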

Additional observations from a re-analysis of the deposited data

How the results depend on the processing

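With 2 libraries per group, a call rests on few values, and 1 siRNA and 1 time point were measured. The read numbers cover counting error only, and a level under 1 RPKM rests on 49 to 117 reads in these genes.

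The 8 transporters had a median log2 difference of 0.19, which moved by less than the spread between libraries in all 15 alternatives, and ran from 0.01 to 0.26 with 1 library left out. The log2 difference of Slc1a3, which was chosen on these values, ran from 1.503 (pseudocount of 1) to 2.54. Slc7a1 stayed above 0 in all 15 and was called only without si-SMaRT replicate 2, and Slc1a5 was called, as lower, only without si-SMaRT replicate 1. The count of called genes was 56, and it was 37 with quantile normalization, 96 with the replicate block, 519 with the GC trend removed, 426 with the GC trend removed and the block, and 104 with voom. Same-numbered libraries deviated in opposite directions (correlation of -0.36 between deviations from the group means), and a crossed pairing, added after the data were seen, gave 487. Neither the labels nor the methods of the study say whether same-numbered libraries came from the same cell population. The block changed no call of the 8 transporters. With 1 library left out the count ran from 24 to 2908, the highest without si-SMaRT replicate 1 and 941 without si-SMaRT replicate 2. Among the 5 lists of other genes, 0 were called, against 1 with a pseudocount of 1, 3 with the GC trend removed, 2 with the GC trend removed and the block, 1 with voom, 3 with the crossed block, and 0 to 23 with 1 library left out. The cause of these moves was not tested. In a fit without 1 library, the lone library of its group was assumed to vary like the others. The rank of Slc1a3 among the 8 transporters, the peaks on the 10 genes and the promoter matches did not move under any alternative run on them.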

Other observations

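Enzymes that make or use glutamate and glutathione were no more called than the carriers. Of 24 listed, 17 had a row and were tested, 0 were called by limma or voom, and 2 had an unadjusted p under 0.05, as did 9.09% of all tested genes. Glul, which makes glutamine from glutamate and shares its row with a microRNA gene, had the highest difference. It was at 9.30 and 8.87 RPKM in si-SCR and at 15.5 and 12.4 RPKM in si-SMaRT (log2 difference of 0.61 ± 0.27 SE, adjusted p = 0.5002 by limma, 0.0442 after removal of the GC trend, and 0.00853 without si-SMaRT 2 to 0.99998 without si-SCR 1 over 15 alternatives). Ppat, the first enzyme of purine synthesis, differed by 0.34 ± 0.28 on the log2 scale. Gpt, a cytosolic alanine aminotransferase, was the lowest, at 2.53 and 2.51 RPKM in si-SCR and at 1.87 and 1.198 RPKM in si-SMaRT (log2 difference of -0.71 ± 0.32 SE). Oplah, which returns oxoproline to glutamate, and the glutathione synthetase Gss differed by -0.51 ± 0.44 and -0.49 ± 0.27.

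Of 34 genes through which amino acids act on mTORC1, 30 had a row and were tested. None was called by limma or voom, 2 had an unadjusted p under 0.05 (9.09% of all tested genes did), and 15 were higher and 15 lower (47.7% of all tested genes were lower), with a median log2 difference of -0.01. Fnip2, a partner of folliculin, was at 0.879 and 1.23 RPKM in si-SCR and at 2.12 and 1.67 RPKM in si-SMaRT (log2 difference of 0.80 ± 0.33 SE, adjusted p = 0.427 by limma). The GTPase Rragc differed by 0.36 ± 0.27. Lamtor4, of the Ragulator complex on lysosomes, was at 36.0 and 28.8 RPKM and then 19.9 and 16.9 RPKM (log2 difference of -0.81 ± 0.27 SE, adjusted p = 0.268 by limma). The GATOR subunits Nprl2 and Wdr24 differed by -0.61 ± 0.30 and -0.39 ± 0.30.

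Within 500 kb of Slc1a3 on chromosome 15, 6 other genes had a row (Nup155, 2410089E03Rik, Nipbl, Nadk2, Skp2 and Lmbrd2). Their log2 differences ran from 0.12 for Lmbrd2 to 0.52 for Nipbl, and the lowest adjusted p by limma was 0.605, that of Nipbl. Nipbl, a loader of cohesin, was at 14.1 and 16.8 RPKM in si-SCR and at 19.1 and 25.5 RPKM in si-SMaRT.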
